A study of Mus musculus with 3 samples.

Results

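The genes described are the cytosolic ribosomal protein genes of the mouse, chosen by symbol: Rps or Rpl followed by a number with an optional paralogue suffix, the stalk genes Rplp0, Rplp1 and Rplp2, and Rpsa. The name rule took 84 of the 32285 features, 32 of the small subunit (Rps) and 52 of the large subunit (Rpl). They were followed in CD45+ immune cells of subcutaneous B16F10 melanoma in C57BL/6 mice. Every mouse had received Pmel-1 cytotoxic T lymphocytes, specific for gp100 and activated in vitro, by vein at day 9 of tumour growth, and tumours were taken 3, 7 or 14 days after that transfer. Pmel-1 is a T cell receptor transgene against a melanoma antigen, and B16F10 is a transplantable C57BL/6 melanoma line. Equal numbers of CD45+ cells of 3 mice were pooled into 1 library per day. Mice without transferred cells were not analysed here. Because a day is 1 library, differences between days were measured without replicates, and day after transfer, age of the tumour and library cannot be told apart.

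A ribosome holds 1 copy of nearly every ribosomal protein, and cells make these proteins in matched amounts. The mRNAs of most of them start with a run of C and T bases, the terminal oligopyrimidine tract, through which mTOR and LARP1 set how strongly they are translated. T cells that are activated in a tumour raise ribosome production before they divide, while macrophages of a tumour are mostly secretory and phagocytic cells. The family also holds a few paralogues, such as Rps27l beside Rps27, Rpl39l beside Rpl39 and Rpl36al beside Rpl36a, whose proteins can take the place of their partners.

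The start sites show the tract in some members and not in others. RefSeq starts on GRCm38.p6 were found for 64 of the 84 members, 76 starts in all, and the 15 bases before and 15 after each start were searched. The letters CTTTCC stood on the transcribed strand at 10 of 76 starts (13.2%), against 1.39% of 32775 starts of other genes; on the opposite strand they stood at 0 of 76, against 1.27% of the others. A run of 8 or more C or T bases on the transcribed strand stood at 36.8% of the members' starts, against 11.9% of other starts, and some windows with CTTTCC are counted in both searches. The windows below belong to members that are described one by one in the results that follow, members of paralogue pairs, Rpl31, and Rpl38 as a short member; capitals mark the longest unbroken run of C and T.
Rps27, chr3:90213634-90213663, minus strand: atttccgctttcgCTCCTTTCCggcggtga
Rps27l, chr9:66946071-66946100, plus strand: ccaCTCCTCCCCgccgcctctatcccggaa
Rpl31, chr1:39367836-39367865, plus strand: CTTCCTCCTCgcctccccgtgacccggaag
Rpl38, chr11:114668565-114668594, plus strand: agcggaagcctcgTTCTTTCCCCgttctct
Rpl39l, chr16:10170213-10170242, plus strand: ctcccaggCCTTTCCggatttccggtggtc
Rpl36al, chr12:69184053-69184082, minus strand: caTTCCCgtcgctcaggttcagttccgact
Rps27 and its paralogue Rps27l differ here: the run of Rps27 lies across the annotated start, while that of Rps27l lies upstream of it, at the first of its 2 annotated starts. A run in such a window is a description of the letters and not a measured regulatory site.

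The 3 libraries held 3656, 3038 and 3549 barcodes at days 3, 7 and 14, with 29547433 to 35742070 UMIs (unique molecular identifiers, 1 per captured RNA molecule) each, and 2600 to 2902 barcodes passed 1500 UMIs. Cell classes were taken by marker UMIs: CD8 T cells split into cycling (3 or more UMIs of Mki67 and Top2a) and non-cycling (0), NK, B, type 2 conventional dendritic cells (cDC2), plasmacytoid dendritic cells (pDC), monocytes and macrophages. On each day the marker list of each class had its highest summed level in the class of its own name. Some cell sequences were found in more than 1 library: they made up 4.97%, 6.92% and 3.00% of barcodes at days 3, 7 and 14, and 56 of 157, 68 of 138 and 30 of 136 cycling CD8 T cells. Results that change without them are given so. B cells and pDC had only 6 and 9 cells at day 7. Day 3 macrophages also held 2201 CPM (UMIs of a gene or list per 1000000 UMIs of the class) of erythroid genes, which were at 0 in macrophages of the other days.

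Non-cycling CD8 T cells gave the largest part of their RNA to ribosomal proteins, apart from the 6 B cells of day 7, and macrophages and monocytes the smallest. The members' share of all UMIs in non-cycling CD8 T cells was 27.5%, 32.0% and 33.8% at days 3, 7 and 14. In cycling CD8 T cells it was 24.8%, 28.1% and 29.2%, below non-cycling cells on every day. NK cells had 23.1%, 26.5% and 28.0%. These 3 lymphocyte classes kept the same order on all days. B cells had 24.2%, 32.3% and 24.2%, with the middle value from 6 cells. The dendritic classes lay lower: cDC2 had 18.9%, 19.6% and 21.5%, and pDC had 17.2%, 20.7% and 21.0%. Macrophages had 12.6%, 13.4% and 15.4%, and monocytes 12.9%, 14.7% and 16.8%, so that neither reached the T or NK cells on any day.

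**Figure D1:**
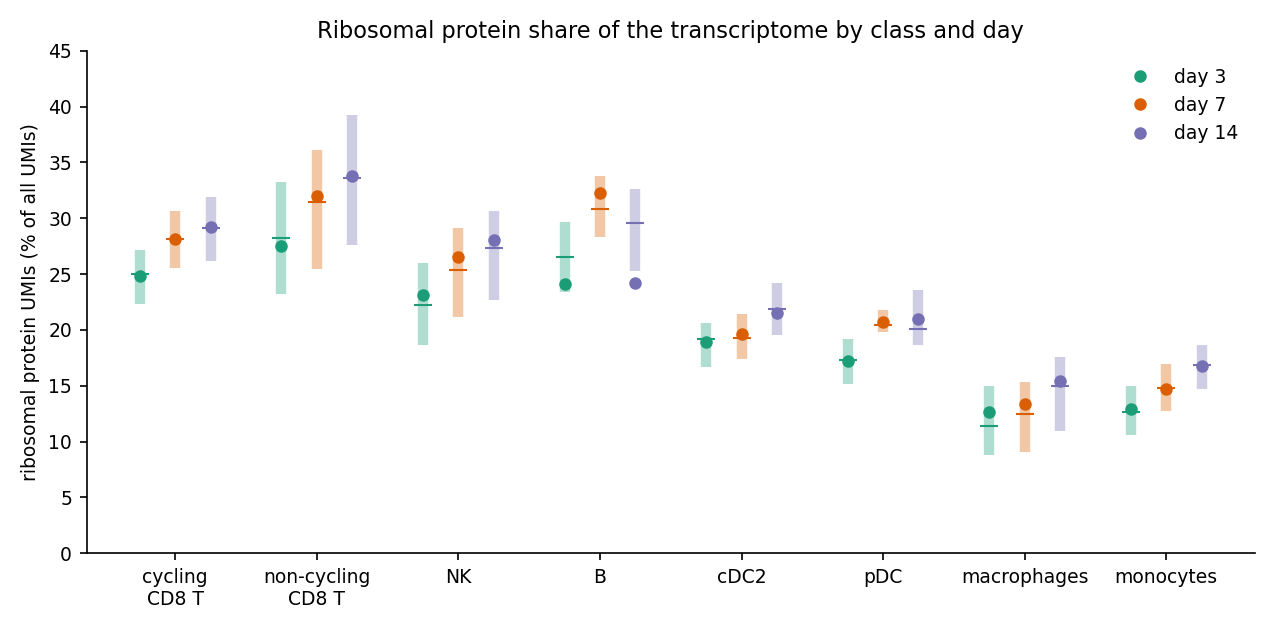
Share of all UMIs that fell on the 84 ribosomal protein genes (y axis, %) by cell class and day after transfer (x axis); dots are pooled shares, dashes the median cell and bars the interquartile range of cells. Non-cycling CD8 T cells sit highest on days 3 and 14, and macrophages and monocytes lowest on all 3 days.

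Cycling CD8 T cells had the lower share but the larger number of ribosomal protein UMIs per barcode. The share in cycling cells was 1.11-fold, 1.14-fold and 1.15-fold below that in non-cycling cells at days 3, 7 and 14 (log2 -0.15, -0.18 and -0.21, with 95% counting intervals of -0.15 to -0.14, -0.19 to -0.18 and -0.21 to -0.20). Per cell, however, the median cycling CD8 T cell held 7365, 8247.5 and 9314 ribosomal protein UMIs on the 3 days, against 2651, 3141 and 2775.5 in the median non-cycling cell. Cycling cells held 30129, 29791.5 and 30578.5 UMIs in all at the median, against 9113, 9502 and 7881.5 in non-cycling cells. The rule that asks for 3 or more cycle UMIs itself favours barcodes with many UMIs, and no doublet caller was run, so UMIs per barcode are not a measure of RNA content free of that choice. The sign held in every alternative choice of barcodes and scaling that was run, with log2 values between -0.36 and -0.03.

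Macrophages lay far below non-cycling CD8 T cells and close to monocytes. The macrophage share was 2.17-fold, 2.40-fold and 2.20-fold below that of non-cycling CD8 T cells at days 3, 7 and 14. Against monocytes the log2 ratio of macrophages was only -0.03, -0.14 and -0.13. At day 7 the members' median in macrophages over non-cycling CD8 T cells was -1.21 in log2 CPM, while the median of all measured genes was -0.33.

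The pooled share was higher at day 14 than at day 3 in 7 of 8 classes. The fold of day 14 over day 3 was 1.18 in cycling CD8 T cells, 1.23 in non-cycling CD8 T cells, 1.21 in NK cells, 1.14 in cDC2, 1.22 in pDC, 1.22 in macrophages and 1.30 in monocytes. In B cells its 95% interval ran from 0.993 to 1.01, but this depends on pooling: the median B cell was at 29.5% at day 14 and 26.5% at day 3, and the pooled share of day 14 lay below the lower quartile of its cells (25.3%). A higher share at day 14 than at day 3 also appeared in barcodes outside every class, where the members made up 17.1%, 20.1% and 19.6% of UMIs at days 3, 7 and 14. Since all classes of a day share 1 library, these folds are not independent of each other.

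Within the family, levels spanned from the most abundant mRNAs of the cell to genes that were barely detected. The kit counts molecules by their 3′ ends, so levels are given as CPM and not per length, and an order between genes of unlike 3′ ends is only approximate. Averaged over all classes and days, the 5 highest members were Rpl13 at 5595 CPM, Rps15a at 5048 CPM, Rps24 at 4916 CPM, Rps16 at 4852 CPM and Rplp1 at 4715 CPM. All are core proteins except Rplp1, which is an acidic protein of the stalk where elongation factors dock. The other stalk members were at 4556 CPM for Rplp0 and 2013 CPM for Rplp2, and Rpsa, the small subunit protein also known as the laminin receptor, was at 4266 CPM. The lowest members were all paralogues: Rpl10l had 1 UMI in all classes together, Rpl3l 55 UMIs and Rpl39l 248 UMIs, ahead of Rpl7l1 at 57.3 CPM and Rps27l at 330.0 CPM. The small subunit took 43.6% to 46.3% of the members' UMIs in every class and day, so that its balance with the large subunit moved little.

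By a rule of size, most members did not depart from the family between classes. A departure was counted where a member's CPM ratio stood at least 1.5-fold from the members' median ratio, with an interval that excluded that median. Only members with 20 or more UMIs were counted. The edgeR test given below has no such fold limit and called more members. At day 7, 3 of 81 measured members departed on the higher side and 1 on the lower side in cycling against non-cycling CD8 T cells. Of all measured genes 31.5% departed from the same line, 24.4% higher and 7.09% lower. Because the members set that line, the shares of all genes given beside such counts do not measure how evenly the family moved. Rps27 was the member on the lower side, with 1036, 1796 and 1409 CPM in cycling cells at days 3, 7 and 14, against 2064, 3297 and 3204 CPM in non-cycling cells. Rps27, also called metallopanstimulin, is a zinc finger protein of the small subunit, and its cycling values lay below the non-cycling value of the same day each time. Its paralogue Rps27l went the other way, with 569, 474 and 594 CPM in cycling cells, against 314, 237 and 263 CPM in non-cycling cells. Rps27l is a p53-inducible gene in human and mouse cells. Rpl7l1, which is related to Rpl7 and acts in large subunit assembly, had 79.1 CPM in cycling cells and 43.2 CPM in non-cycling cells at day 7. At day 3 and day 14 the counts were again 4 of 82 and 4 of 81, against 28.7% and 35% of all genes.

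The edgeR quasi-likelihood test, with library as a term and the members' own UMI total as library size, was run over the 3 libraries. It set each departure against the variation of class differences from library to library, where each library is another day. It was added after the data had been seen. Of 81 members, 12 were higher and 11 lower in cycling than in non-cycling CD8 T cells, against 24.4% and 6.49% of all 10694 genes. Without the day 14 library 6 were called in all, and without day 3 13. Relative to the members' total, Rps27 fell by 0.84 on the log2 scale in cycling cells (SE 0.10, Benjamini-Hochberg adjusted p from edgeR = 2.1e-06, lower in 3 of 3 libraries). Rps27l rose by 1.18 (SE 0.19, edgeR adjusted p = 4.9e-05, higher in 3 of 3 libraries). Rps2, which binds near the mRNA entry channel of the small subunit, had 6782, 6930 and 7649 CPM in cycling cells, against 5269, 5677 and 5965 CPM in non-cycling cells, a rise of 0.52 (edgeR adjusted p = 1.0e-04). Rps24 fell by 0.45 relative to the members (edgeR adjusted p = 1.1e-04), with 3800, 4719 and 4474 CPM in cycling cells, against 5704, 6864 and 7499 CPM in non-cycling cells.

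Set against the mean of the other 7 classes, the cycling CD8 T cells had 3 members that departed in 3 of 3 libraries, where 36% of all genes did. Rps27 was 2.31-fold, 1.93-fold and 2.01-fold lower than the members' line at days 3, 7 and 14. Rps2 was 1.60-fold, 1.52-fold and 1.57-fold higher. Leaving out the barcodes found in more than 1 library, or those of 20000 or more UMIs, kept Rps27 alone in this count, so that Rps2 no longer departed, and Rps2 was also lost with barcodes that met several rules kept. No member departed in all 3 libraries in non-cycling CD8 T cells, NK cells, cDC2 or monocytes, where 31.4%, 19.8%, 13% and 38% of all genes did.

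Rps27 and Rps27l together gave the clearest pattern across the classes. Rps27l made up 35.5%, 20.9% and 29.6% of the UMIs of the pair in cycling CD8 T cells at days 3, 7 and 14, against 13.2%, 6.69% and 7.59% in non-cycling CD8 T cells. Macrophages had 36.9%, 16.4% and 27.9%, beside 21.0%, 18.1% and 24.9% in monocytes and 22.3%, 18.5% and 26.3% in cDC2. The low end was held by B cells with 3.37%, 1.79% and 6.46%, of which the middle value rests on 4 UMIs of Rps27l. NK cells had 9.08%, 6.84% and 11.1% and pDC 12.6%, 7.95% and 9.70%. Thus cycling T cells and the myeloid classes lay above B, NK, pDC and non-cycling T cells on every day. Day 7 was the lowest of the 3 days in each class. For day 7 over day 3, Rps27 (252 nt of coding length) had a median log2 CPM ratio of 0.63 over the 6 classes other than B cells and pDC. Rps27l (315 nt) had -0.10. Members under 300 nt had larger day 7 ratios as a group, as given below, so the day 7 values are not particular to this pair. A near-copy outside the name rule, Rps27rt, held 2098 UMIs beside 103189 of Rps27, and reads may have been split between them.

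**Figure D2:**
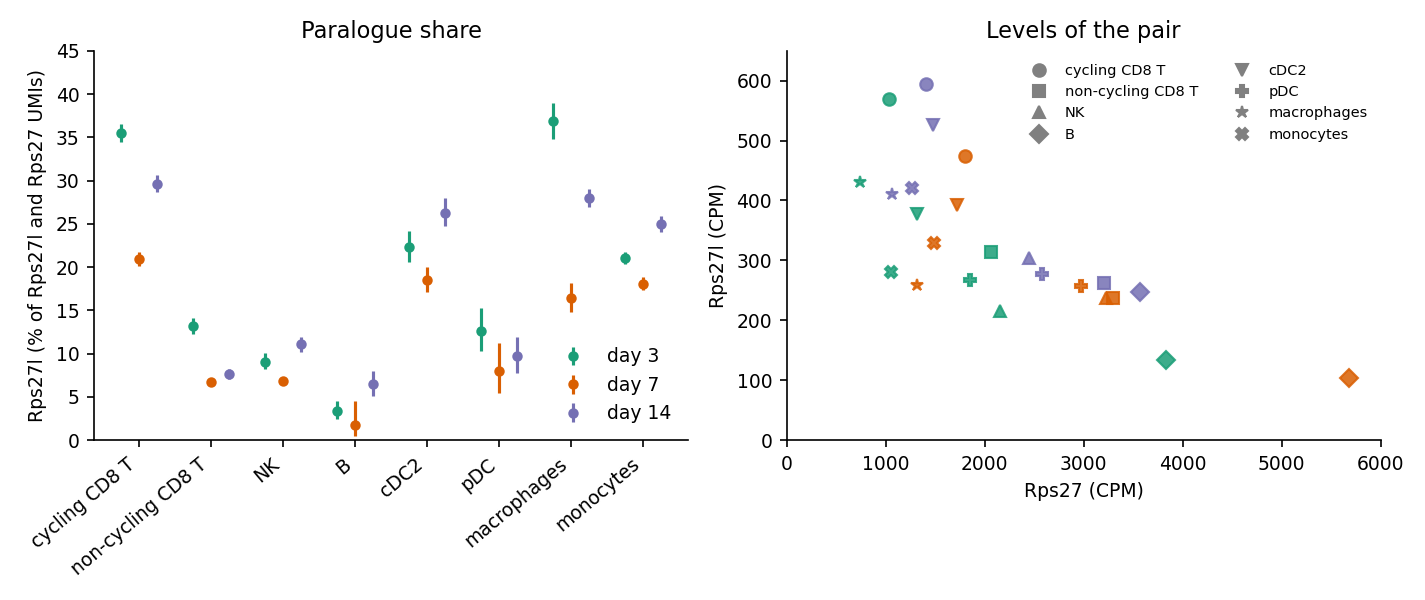
Left, share of Rps27l in the UMIs of Rps27l and Rps27 together (y axis, %) by class and day, with 95% counting intervals; right, CPM of Rps27l against CPM of Rps27, coloured by day with 1 marker shape per class. Cycling CD8 T cells stand above non-cycling CD8 T cells on all 3 days, with 35.5% against 13.2% at day 3.

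B cells were the class with the most Rps27 and the least Rps27l. Rps27 stood at 3829, 5680 and 3567 CPM in B cells at days 3, 7 and 14, against a mean of 1458, 2260 and 1920 CPM in the other classes. Rps27l stood at 133, 104 and 246 CPM in B cells, against 351, 312 and 400 CPM. The B cell value was above the other classes' mean for Rps27 and below it for Rps27l in each library. Rpl31, a large subunit protein near the exit of the peptide tunnel, was at 446, 571 and 553 CPM in B cells, against 671, 868 and 941 CPM. These 3 were the members that departed in 3 of 3 libraries, against 4.23% of all genes; with barcodes that met several rules kept in each class, Rps27l no longer did. The edgeR test called 12 members higher and 20 lower in B cells, against 7.13% and 17.9% of all genes, and 16 in all without the day 3 library. Rps27 rose by 0.96 relative to the members (SE 0.07, edgeR adjusted p = 1.8e-09). In the same edgeR test Rps27l fell by 1.25 (SE 0.20, adjusted p = 5.6e-05) and Rpl31 by 0.76 (SE 0.09, adjusted p = 1.5e-06).

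Rpl31 had the largest departure among those present in 3 of 3 libraries, and it was in pDC. Its level was 1513, 2274 and 2307 CPM in pDC at days 3, 7 and 14, against a mean of 518, 625 and 691 CPM in the other 7 classes. No other class reached the pDC value of any day, the nearest being cycling CD8 T cells at 806, 945 and 1015 CPM. Against the members' line this was 3.68-fold, 4.10-fold and 3.94-fold higher, and Rpl31 was the 1 member of 81 that departed in pDC in 3 of 3 libraries, against 10.4% of all genes. Relative to the members' total it rose by 1.92 (SE 0.07, edgeR adjusted p = 6.7e-16, higher in 3 of 3 libraries). The same edgeR test called 17 members higher and 24 lower in pDC, against 25.6% and 5.99% of all genes, and 22 in all without day 3 or without day 14. Among them Rpl10, next to Rpl31 in the size of the rise, rose by 0.60. At day 7 the 9 pDC also held 903 CPM of CD8 T cell markers, and the part of these in the day 7 value was not tested.

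**Figure D3:**
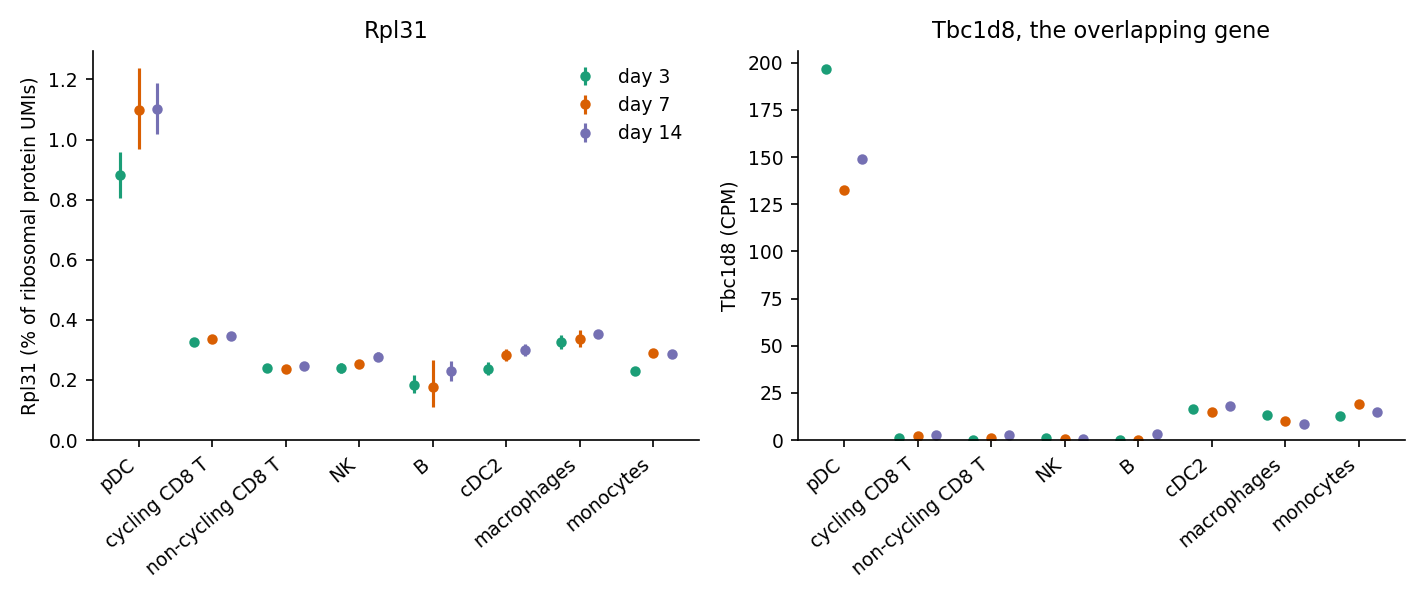
Left, Rpl31 as a share of all ribosomal protein UMIs (y axis, %) by class and day, with 95% counting intervals; right, CPM of the neighbouring gene Tbc1d8 in the same sums. Only the pDC points stand at 0.88% to 1.10% for Rpl31, and pDC also hold the highest Tbc1d8.

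The place of Rpl31 in the genome bears on how this value is read. Rpl31 (ENSMUSG00000073702) lies at chr1:39367842-39371911 on the plus strand of GRCm38, and its 3′ end overlaps the 3′ end of Tbc1d8, which runs from 39478755 down to 39371492 on the minus strand. Tbc1d8, a gene for a Rab GTPase-activating domain protein, was also a pDC gene here, with 196, 133 and 149 CPM in pDC at days 3, 7 and 14 and at most 19.3 CPM in any other class. Whether the authors' counting used strand is not given in the sources used here, so reads of the overlap cannot be assigned with certainty. The pDC of days 3, 7 and 14 were also split by Tbc1d8. The 10, 4 and 10 pDC without a Tbc1d8 UMI had Rpl31 at 0.89%, 1.22% and 1.15% of ribosomal protein UMIs. The 26, 5 and 21 pDC with 1 or more had it at 0.88%, 1.04% and 1.08%. A cell without a counted UMI may still hold Tbc1d8 RNA, and the part of such reads in the Rpl31 value was not tested. Rpl31 made up 0.88%, 1.10% and 1.10% of ribosomal protein UMIs in pDC at days 3, 7 and 14, and between 0.18% and 0.35% in the other classes.

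Macrophages differed from non-cycling CD8 T cells in the make-up of the family as well as in its total. At day 7, 6 of 81 members departed on the higher side and 4 on the lower. Of all genes 63.4% departed, 53.5% higher and 9.86% lower. The line here was the members' own median of -1.21 in log2 CPM, while the median of all genes was -0.33. The share of all genes above the line follows in part from that choice. On the lower side, Rps15a, Rpsa, Rpl12 and Rpl13a stood at 2481, 1823, 1280 and 1533 CPM in macrophages, against 9619, 6763, 4525 and 5389 CPM in non-cycling CD8 T cells. Rpl12 lies at the base of the stalk, and Rpl13a is also the part of the GAIT complex that in human monocytes represses inflammatory mRNAs. On the higher side of the line, though mostly still below the T cell level, were Rps29, Rps25 and Rpl10 at 2078, 1277 and 1980 CPM in macrophages, against 3020, 1784 and 2535 CPM in non-cycling CD8 T cells. Rps25 is needed for some forms of internal initiation, and Rpl10 is the last large subunit protein to join before translation. Rps27l had more CPM in macrophages than in non-cycling CD8 T cells on each day. It stood at 431, 259 and 411 CPM in macrophages at days 3, 7 and 14, against 314, 237 and 263 CPM in non-cycling CD8 T cells. The day 7 difference was small, with a log2 ratio of 0.13 from 333 and 619 UMIs. With all UMIs as library size, Rps27l was higher by 0.42 over the 3 libraries (edgeR adjusted p = 0.036). At day 3 and day 14, 7 of 82 and 5 of 81 members departed, against 66.7% and 69.8% of all genes.

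In the edgeR test over the 3 libraries, 24 of 81 members were higher and 20 lower in macrophages than in non-cycling CD8 T cells relative to the members' total, against 62.2% and 9.73% of all genes. Without the day 3 library 28 were called in all, and without day 14 27. Rps27l rose by 1.58 (SE 0.19, edgeR adjusted p = 1.4e-07), Rpl36al by 0.82 (edgeR adjusted p = 1.7e-05) and Rps25 by 0.70 (edgeR adjusted p = 3.1e-08). Rpsa fell by 0.54 (edgeR adjusted p = 6.3e-07), Rpl13a by 0.53 (edgeR adjusted p = 2.9e-07) and Rps15a by 0.51 (edgeR adjusted p = 2.4e-06). These signs are relative to the family, which itself was lower in macrophages. Rpl31, for example, was 0.49 higher relative to the members and -0.68 with all UMIs as the library size. Rps27l was also the 1 member that departed in macrophages against the mean of the other 7 classes in 3 of 3 libraries, 2.31-fold, 1.63-fold and 1.74-fold higher, where 28.6% of all genes departed.

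Of the other paralogue pairs, that of Rpl36al divided the macrophages, monocytes and dendritic classes from the lymphocytes. Rpl36al made up 66.2%, 61.9% and 57.2% of the UMIs of Rpl36al and Rpl36a in monocytes at days 3, 7 and 14, and 56.0%, 52.4% and 51.0% in macrophages. In non-cycling CD8 T cells it was 43.8%, 33.7% and 33.0%, and in NK cells 43.2%, 37.1% and 36.2%. Cycling CD8 T cells had 45.1%, 35.9% and 38.3%, and B cells 39.5%, 28.6% and 44.9%. cDC2 had 54.1%, 50.2% and 47.8%, and pDC 59.0%, 56.0% and 59.9%. Rpl22l1, the paralogue whose level rises when Rpl22 is lost in mice, made up 22.6%, 19.6% and 18.7% of its pair in macrophages, against 29.6%, 27.6% and 25.2% in non-cycling CD8 T cells. It did not divide the classes as Rpl36al did, since pDC had 32.7%, 30.9% and 32.5%, above non-cycling CD8 T cells on each day, and cDC2 had 22.7%, 20.4% and 20.8%. In cycling CD8 T cells Rpl22l1 was 33.0%, 30.8% and 26.9% of the pair, above non-cycling cells on each day. The processed copy Rpl36a-ps1, outside the name rule, held 668 UMIs, so the Rpl36a side of its pair may be undercounted. The paralogue was the minor side of its pair everywhere for Rpl7l1, at no more than 4.78%, and for Rpl39l, at no more than 1.45%.

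Rpl39l, a paralogue of the tunnel protein Rpl39 that is best known from testis, was found mostly in CD8 T cells of day 3. Its level was 30.8, 0.22 and 0.92 CPM in cycling CD8 T cells at days 3, 7 and 14, and 19.0, 1.15 and 2.69 CPM in non-cycling ones. At day 3, 38 of 443 barcodes that met the CD8 rule held it (8.58%, exact binomial 95% interval 6.14 to 11.6%). At day 7 and day 14 they were 7 of 517 (1.35%) and 5 of 458 (1.09%). In the day 3 library 11.5% of cycling and 3.66% of non-cycling CD8 T cells held a UMI of it, against 0.463% of monocytes, which had a median of 10346 UMIs, and none of the 250 NK cells or 117 macrophages. The 45 barcodes of day 3 with any Rpl39l, whatever their class, held 318 UMIs of it, so that the signal was concentrated in few cells.

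The Rpl39l cells of day 3 had less Trbc2 than the other CD8 T cells of that library, but a like level of Trac. Of the CD8 barcodes, 32 had 2 or more UMIs of Rpl39l and 405 had 0. The 32 held 2 UMIs of Trbv14 among 4 UMIs of all Trbv segments, against 146 among 191 in the 405. Trbv14 is the beta chain segment of the Pmel-1 receptor, and 4 UMIs are too few to compare the use of segments. Trbc2, a constant segment of the beta chain, stood at 1232 CPM in the 32 cells and 5489 CPM in the 405, while Trac, the alpha chain constant segment, stood at 595 CPM in the 32 and 607 CPM in the 405. Of the 32 cells 53.1% were cycling, against 35.6% of the 405. The 32 were also deeper, at a median of 24531.5 UMIs against 14527 in the 405, and the part of depth in these differences was not tested. Genes picked after their values were seen also differed: Nrgn, Igfbp7, Xcl1 and Klf2 were at 397, 104, 239.7 and 20.1 CPM in the 32 cells, against 80.6, 15.5, 1449 and 124 CPM in the 405. The ribosomal protein share was 24.4% in the 32 cells and 25.4% in the 405, and the partner Rpl39 was at 2179 CPM in the 32 and 2210 CPM in the 405. The rest of the family was thus at a like level in both sets of cells.

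For day 14 over day 3 in non-cycling CD8 T cells, the members' median ratio was 0.27 in log2 CPM, beside -0.12 for all measured genes. It differed with coding length: the median was 0.47 in members under 300 nt, 0.34 at 300 to 600 nt and 0.18 at 600 nt or more. Of 82 measured members 78 had more CPM at day 14. On the higher side 0 of 82 departed and on the lower side 2, where 28.5% of all genes departed, 1.58% higher and 27% lower. Those on the lower side were Rpl39l and Rpl7l1, with 2.69 and 37.6 CPM at day 14, against 19.0 and 75.6 CPM at day 3.

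The day 7 library differed from day 3 in a way that followed the length of the member. Members with a coding length under 300 nt had a median log2 CPM ratio of day 7 over day 3 of 0.61 in non-cycling CD8 T cells, 0.58 in NK cells and 0.49 in macrophages. Members of 300 to 600 nt were at 0.21, 0.20 and 0.06 in these classes, and members of 600 nt or more at 0.05, 0.04 and -0.06. Most short members thus had large ratios, but not Rpl39l, which is also under 300 nt and had a log2 ratio of -4.05 in non-cycling CD8 T cells. Rpl38, a small protein needed for the translation of some Hox mRNAs in mouse embryos, had 1763, 2707 and 2231 CPM in non-cycling CD8 T cells at days 3, 7 and 14, and 896, 1263 and 1191 CPM in macrophages. Rpl41, the shortest of the family, had 4181, 6217 and 5469 CPM in non-cycling CD8 T cells, and 2376, 3319 and 3282 CPM in macrophages. The long Rplp0 had 6563, 6804 and 7266 CPM in non-cycling CD8 T cells, and 2504, 2425 and 2957 CPM in macrophages. Rplp0 thus barely differed between days 3 and 7 where Rpl38 and Rpl41 did.

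Across members, Spearman's rho between coding length and the day 7 over day 3 ratio was -0.68 in non-cycling CD8 T cells (82 members), -0.83 in NK cells (81), -0.70 in macrophages (81), -0.73 in monocytes (82), -0.71 in cDC2 (81) and -0.70 in cycling CD8 T cells (82). Across all other genes it lay between -0.06 and 0.08 in these 6 classes. Other genes under 300 nt had medians of 0.07 in non-cycling CD8 T cells, 0.12 in NK cells and -0.11 in macrophages. Rps27, Rpl37a, Rpl39, Rps29, Rps26, Rps28, Rpl37, Rpl34, Rpl36 and Rps21 joined Rpl38 and Rpl41 above 0 in 6 of 6 classes. A negative rho was also found for day 14 over day 3, with rho -0.57 in non-cycling CD8 T cells, -0.51 in NK cells and -0.61 in macrophages. Day 14 over day 7 went the other way, with rho 0.43 in non-cycling CD8 T cells, 0.58 in NK cells and 0.53 in macrophages. There, members under 300 nt had medians of -0.15, -0.21 and -0.08 in these classes, and members of 600 nt or more 0.11, 0.18 and 0.30. Genes are not replicates, and all points of a day share 1 library, so these values describe 3 libraries and carry no test. Differences in library preparation and in the cells cannot be told apart here.

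**Figure D4:**
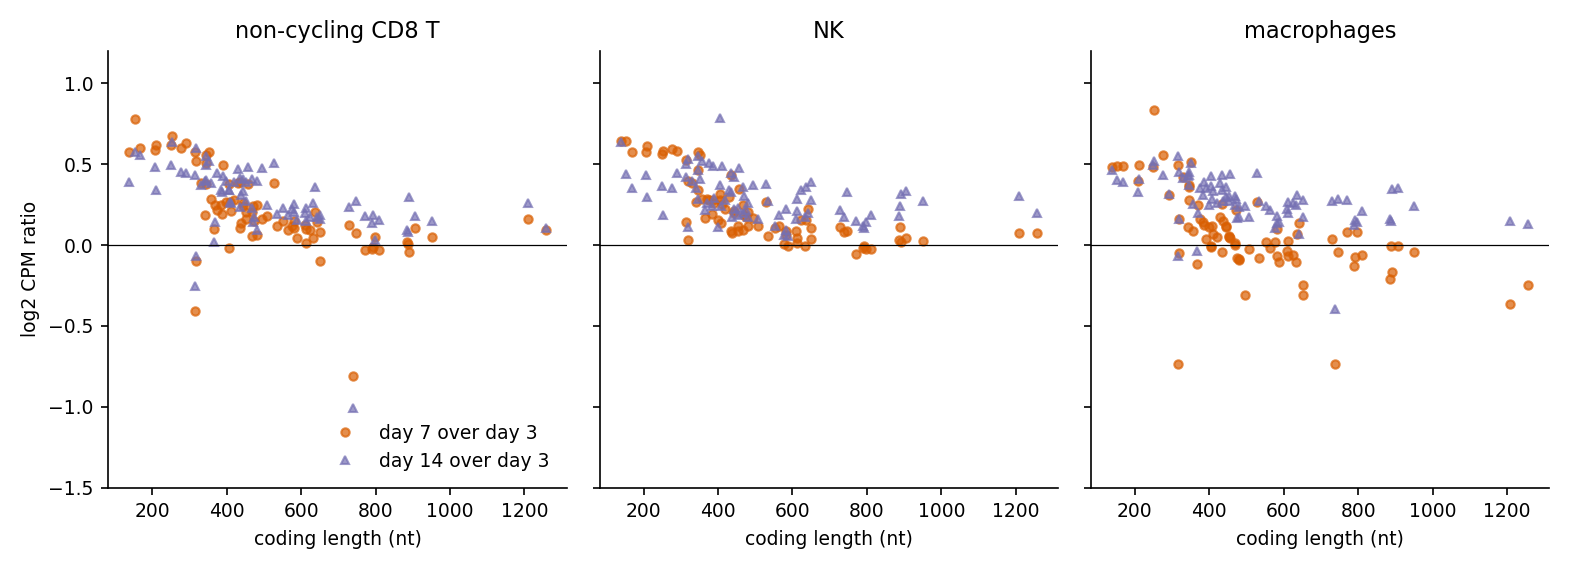
Log2 CPM ratio of day 7 over day 3 (circles) and day 14 over day 3 (triangles) of each ribosomal protein gene (y axis) against its coding length in nt (x axis) in non-cycling CD8 T cells, NK cells and macrophages; Rpl39l is left out. Members under 300 nt sit highest, with a day 7 median of 0.61 in non-cycling CD8 T cells. Members of 600 nt or more have day 7 medians near 0. Their day 14 medians are 0.18 in non-cycling CD8 T cells, 0.21 in NK cells and 0.21 in macrophages.

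Within CD8 T cells, genes that build ribosomes did not follow the ribosomal proteins. The 22 ribosome biogenesis genes, which process rRNA and assemble subunits in the nucleolus, summed to 4313, 3162 and 3825 CPM in cycling CD8 T cells at days 3, 7 and 14, against 3779, 1605 and 1989 CPM in non-cycling cells. At least 1.5-fold higher in cycling cells were 0 of 22 at day 3, where 15.1% of all genes were, but 18 of 22 at day 7 (17.5% of all genes) and 16 of 22 at day 14 (19.1%). The median log2 ratio of the 22 was 0.16, 0.91 and 0.73 on the 3 days. Ncl, the nucleolar protein nucleolin, had 1253 CPM in cycling cells and 564 CPM in non-cycling cells at day 7. Nhp2, of the snoRNP particles that modify rRNA, and Fbl, the rRNA methyltransferase fibrillarin, had 233 and 217 CPM in cycling cells, against 102 and 123 CPM in non-cycling cells. The biogenesis genes were thus higher in cycling cells at day 7 while the share of the ribosomal proteins themselves was lower.

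In non-cycling CD8 T cells 20 of 22 biogenesis genes were at least 1.5-fold lower at day 7 than at day 3, against 14.3% of all genes, and 20 of 22 at day 14 than at day 3, against 12.6%. Ncl and Nhp2 had 685 and 134 CPM at day 14, against 1446 and 292 CPM at day 3. Over the same days the ribosomal protein share of these cells was higher, at 33.8% at day 14 and 27.5% at day 3. Macrophages had 1289, 917 and 1243 CPM of the 22 at days 3, 7 and 14, and 22 of 22, 15 of 21 measured and 15 of 22 were at least 1.5-fold below non-cycling CD8 T cells, where 28.8%, 35.1% and 29.2% of all genes were.

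**Figure D5:**
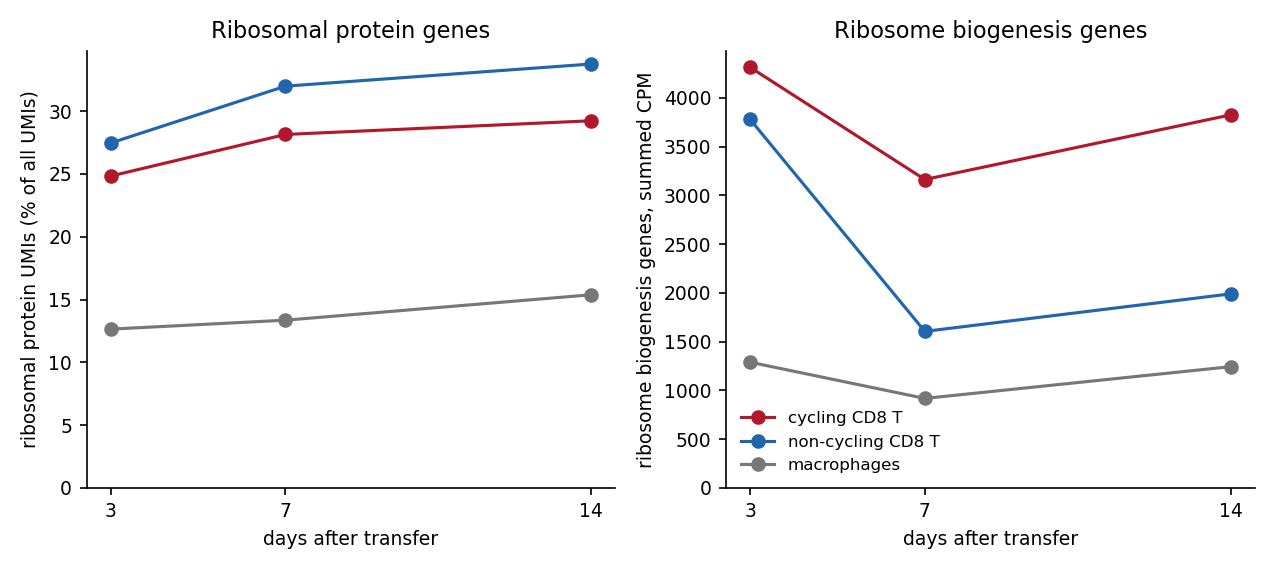
Ribosomal protein share of all UMIs (%) and summed CPM of 22 ribosome biogenesis genes by day after transfer in cycling CD8 T cells, non-cycling CD8 T cells and macrophages. In non-cycling CD8 T cells the share was higher at day 14 (33.8%) than at day 3 (27.5%), while the biogenesis sum was lower at day 14 (1989 CPM) than at day 3 (3779 CPM).

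Other parts of the translation machinery were set beside the members by lists of their own. Of 18 translation factor and other oligopyrimidine mRNAs, 15 were at least 1.5-fold lower in macrophages than in non-cycling CD8 T cells at day 7, against 35.1% of all genes. Eef1a1, which brings tRNAs to the ribosome, Eef2, the translocation factor, and Tpt1 stood at 4849, 643 and 8497 CPM in macrophages, against 10678, 1736 and 9553 CPM in non-cycling CD8 T cells. Between cycling and non-cycling CD8 T cells at day 7 only 3 of the 18 passed that fold, 2 higher and 1 lower, where 17.5% of all genes were higher and 11.7% lower. Between days 14 and 3 of non-cycling CD8 T cells 0 did, where 4.41% of all genes were higher and 12.6% lower. Mitochondrial ribosomal proteins, which serve a separate ribosome, were at least 1.5-fold higher in cycling than in non-cycling CD8 T cells for 25, 32 and 46 of 78 at days 3, 7 and 14, and lower for 0; of all genes 15.1%, 17.5% and 19.1% were higher. Of cytosolic ribosomal proteins outside the name rule, Rack1 and Fau were at 1252 and 4724 CPM in macrophages at day 7, against 3143 and 6139 CPM in non-cycling CD8 T cells. Of 8 measured regulators of oligopyrimidine mRNAs, 2 were at least 1.5-fold higher in macrophages than in non-cycling CD8 T cells at day 7. On the lower side were 3, where 35.1% of all genes were lower. Eif4ebp1, a brake on cap-dependent translation, was at 480.0 CPM in macrophages and 27.9 CPM in non-cycling CD8 T cells. Eif4ebp2 went the other way, at 31.1 CPM in macrophages and 79.1 CPM in non-cycling CD8 T cells. Larp1, which binds the tract, and Myc were at 84.7 and 53.3 CPM in non-cycling CD8 T cells at day 14, against 139 and 90.0 CPM at day 3. They were among 3 of 8 measured regulators at least 1.5-fold lower at day 14, where 12.6% of all genes were, and 0 were higher.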

How the data were processed

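The deposited values were whole UMI counts per gene and barcode from the 10x Genomics 3′ kit, as the authors deposited them. The submitters' processing notes name Cell Ranger 4.0.0 and the build mm10. The treatment of reads shared between copies or strands is not given in the sources used here. Labels name both a cell sorter and magnetic beads for taking CD45+ cells. All 3 libraries were used, and 0 columns were left unread. The members and gene lists were chosen with earlier results of these data known.

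Barcodes of at least 1500 UMIs were placed by UMIs: CD8 T cells by Cd8a and Cd8b1 (2 or more) with Cd3e and Cd3d (1 or more), split by Mki67 and Top2a (3 or more, or 0); NK cells by Ncr1 and Klrb1c, B cells by Cd79a, cDC2 by Cd209a and pDC by Siglech (2 or more each); monocytes by Ly6c2 (3 or more) and macrophages by Arg1 (5 or more). Most CD8 T cells also passed the Ly6c2 rule (275 of 443, 347 of 517 and 243 of 458 at days 3, 7 and 14), so a barcode that met the Ly6c2 rule and 1 other of CD8 T, NK, B, cDC2 or pDC counted for that other class, and monocytes met no other rule and held no Cd3e or Cd3d UMI. Barcodes that met several other rules, or the Ly6c2 and Arg1 rules both, were left out. With CD8 T cells of 1 or 2 UMIs of Mki67 and Top2a and barcodes that met only the Ly6c2 rule but held Cd3e or Cd3d, 312, 324 and 326 barcodes were left out at days 3, 7 and 14. No doublet caller was run. UMIs were summed per class and day (1779, 1594 and 1511 barcodes) and scaled to 1000000 UMIs of the class (CPM). Shares have Clopper-Pearson and ratios exact conditional 95% intervals, which cover counting error only. A departure was 1.5-fold from the members' median ratio, with 20 or more UMIs. Companion lists were counted at a 1.5-fold change of CPM.

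Between classes, edgeR 4.0.16 (R 4.3.3) tested the sums with quasi-likelihood F-tests over all 10694 genes, 81 of them members. Library was a term, the members' UMI total was the library size, and adjustment was by Benjamini-Hochberg. Classes of 1 library share its pool of 3 mice, and each library is another day, so the libraries are not replicates of 1 condition. With library as a term, the p-values measure how differences between classes varied from library to library. That variation was estimated over all classes, those of few cells included. DESeq2 1.42.0 and the settings in the closing section were alternatives. Both procedures were tested on simulated data. Named genes were the 5 highest and 5 lowest members, up to 4 departing members in each direction per contrast, the paralogue pairs, the stalk genes and Rpsa, and up to 3 genes per companion list; others named, among them Rps24, Rpl38, Rpl41, the Rpl39l cells' genes and the regulators, were chosen after their values were seen. Tables were handled with Python 3.11.15, numpy 2.4.6, scipy 1.17.1 and pandas 2.3.3. Some members and genes that these rules name are not reported here.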

Additional observations from a re-analysis of the deposited data

How the results depend on the processing

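The log2 share ratio of cycling over non-cycling CD8 T cells at days 3, 7 and 14 was negative in every setting: -0.19, -0.28 and -0.30 with DESeq2 size factors, -0.23, -0.33 and -0.36 with TMM, -0.25, -0.11 and -0.36 without barcodes of 20000 or more UMIs, -0.13, -0.034 and -0.10 with barcodes that met exactly 1 rule, -0.13, -0.17 and -0.18 with the rules as written and overlaps kept, -0.22, -0.15 and -0.21 as the mean over cells, -0.16, -0.15 and -0.18 without shared barcodes, -0.16, -0.19 and -0.22 without mitochondrial genes, and at single days -0.14 with 1000 UMIs (day 3), -0.21 with 3000 UMIs (day 14) and -0.15 with under 10% mitochondrial UMIs (day 3). For non-cycling CD8 T cells, day 7 over 3 and day 14 over 7 were 0.30 and 0.11 with DESeq2 size factors, 0.32 and 0.10 with TMM, 0.13 and 0.13 without the deep barcodes, 0.23 and 0.057 with overlaps kept, 0.13 and 0.090 as the mean over cells, 0.21 and 0.084 with under 10% mitochondrial UMIs and 0.21 and 0.085 without mitochondrial genes; day 7 over 3 was 0.086 with exactly 1 rule and day 14 over 7 was 0.060 without shared barcodes. For macrophages they were 0.29 and 0.11, 0.24 and 0.12, 0.16 and 0.17 and, as the mean over cells, 0.10 and 0.19; day 7 over 3 was 0.12 without shared barcodes and turned to -0.024 with overlaps kept. At a 2-fold departure, 0 members departed in cycling CD8 T cells, B cells and macrophages against the other classes, 2 between cycling and non-cycling CD8 T cells and 2 between macrophages and CD8 T cells at day 7. With 100 UMIs as the minimum, 1 member departed between days 14 and 3. Against the other classes, leaving out deep barcodes gave 1 member in cycling CD8 T cells, 2 in non-cycling, 1 in cDC2, 2 in pDC, 2 in macrophages and 3 in monocytes, and 1 between cycling and non-cycling cells at day 7; 3000 UMIs gave 1 in non-cycling CD8 T cells and 2 in pDC; overlaps kept gave 2 in pDC, 2 in macrophages, 2 in B cells (without Rps27l) and 2 in cycling CD8 T cells (without Rps2); without shared barcodes there were 1 in cycling CD8 T cells, 2 in pDC and 2 in monocytes. Exactly 1 rule left a class empty and gave no such count. The edgeR calls, a test added after the data were seen with all its alternatives, ranged over leaving out 1 library from 6 to 17 (cycling), 27 to 39 (macrophages), 22 to 35 (pDC) and 16 to 30 (B cells); DESeq2 called 48 in the cycling contrast, and all UMIs as library size gave 80 in macrophages and 57 in B cells, and turned Rpl31 in macrophages to -0.68. Rpl31 in cycling cells lost its call without day 14 (0.47, edgeR adjusted p = 0.066). Except where named, causes were not tested. No paired analysis was possible between days because each day has 1 library; between classes, the library term of the edgeR fits sets the classes of 1 library against each other. B cells and pDC of day 7 limit what their values show.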
